A study of Homo sapiens with 6 samples.

Results

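The genes described here are 10 genes of antigen presentation by MHC class I molecules, chosen by symbol and measured with 1 probe set each: B2M, HLA-C, HLA-E, HLA-F, ERAP1, ERAP2, TAP1, TAP2, TAPBP and NLRC5. All 10 were found among the 17687 genes with a probe set, and their levels were compared after knockdown of ERK3 in A375 cells, a human melanoma line in long use. Cells received a small interfering RNA (siRNA) against ERK3, the atypical MAP kinase encoded by MAPK6 (siERK3, 3 arrays), or a negative control siRNA (siCon, 3 arrays), and RNA was taken 3 days later for Clariom S Pico arrays. Both groups were A375 cells transfected with the same reagent, so an untransfected state was not analysed here. The siRNAs were predesigned commercial reagents whose sequence and number the labels do not state. The labels do not tie each array to a culture of its own, and the p-values therefore rest on array-to-array spread, which may be technical.

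MHC class I molecules display peptides from the inside of a cell to CD8 T cells and natural killer cells. The proteasome cuts proteins into peptides, the TAP transporter moves these into the endoplasmic reticulum, the aminopeptidases ERAP1 and ERAP2 trim them there, and tapasin (TAPBP) helps to load them on a heavy chain (HLA) paired with beta-2-microglobulin (B2M). NLRC5 is a transcriptional coactivator of genes in this pathway, and tumours, melanoma among them, are known to lower parts of it.

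Promoters of this family have known features, though not every gene holds all of them. These are sites for interferon regulatory factors, sites for NF-kB, and an X and Y box module through which NLRC5 acts. The stretches before the start of 4 genes are printed because B2M, HLA-C and HLA-F had the lower siERK3 levels described next, while TAPBP had nearly equal levels. They are reference sequences of RefSeq (GRCh38.p14), 5′ to 3′ on the gene's strand and ending 1 base before the start, with matches in capitals. The motifs searched on both strands of 200 bases were the interferon-stimulated response element (GAAA, any 2 bases, GAAA), a shorter element of interferon regulatory factors (GAA, any 2 bases, GAAA; IRF element), CCAAT (the core of the Y box), TGACG (the core of a cyclic AMP response element, as in the X box) and the NF-kB consensus. Neighbouring matches can share bases.
B2M, chr15:44711391-44711516, plus strand: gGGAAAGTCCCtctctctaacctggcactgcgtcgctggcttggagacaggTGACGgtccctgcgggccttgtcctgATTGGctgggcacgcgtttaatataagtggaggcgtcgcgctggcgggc
HLA-C, chr6:31272093-31272292, minus strand: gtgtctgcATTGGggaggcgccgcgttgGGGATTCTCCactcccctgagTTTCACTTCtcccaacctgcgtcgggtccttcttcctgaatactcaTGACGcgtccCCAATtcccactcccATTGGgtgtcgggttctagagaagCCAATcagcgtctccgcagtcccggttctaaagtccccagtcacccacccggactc
HLA-F, chr6:29723234-29723433, plus strand: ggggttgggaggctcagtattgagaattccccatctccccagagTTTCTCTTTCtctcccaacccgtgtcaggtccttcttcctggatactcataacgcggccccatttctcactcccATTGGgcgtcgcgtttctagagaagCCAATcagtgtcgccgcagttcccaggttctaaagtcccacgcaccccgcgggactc
TAPBP, chr6:33314079-33314278, minus strand: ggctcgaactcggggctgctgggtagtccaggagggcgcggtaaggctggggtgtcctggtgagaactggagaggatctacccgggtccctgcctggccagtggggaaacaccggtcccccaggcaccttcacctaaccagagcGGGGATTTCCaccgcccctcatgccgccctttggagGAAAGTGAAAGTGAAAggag
For B2M only 126 bases are printed, since a model of the gene PATL2 overlaps the bases before them. A pair of overlapping interferon-stimulated response elements lies there, in GAAAAGGAAACTGAAA at chr15:44711373-44711388.

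Sequences were matched for 8 of the 10 genes, all but HLA-E and NLRC5. The interferon-stimulated response element was found 2 times each before B2M, TAP1 and TAPBP and 1 time each before HLA-F and TAP2, and in 2.44% of the 27305 promoters of the same length. HLA-C, TAP2 and ERAP1 had 1 match each to the IRF element, which 5.27% of promoters held. CCAAT was found 1 time before B2M, 4 times before HLA-C and 2 times before HLA-F, and in 28.9% of promoters. TGACG was found 1 time each before B2M, HLA-C and TAP2, and in 18.8% of promoters. The NF-kB consensus was matched 1 time each before B2M, HLA-C, TAP1 and TAPBP, and in 7.85% of promoters. The stretch of ERAP2 held 0 matches to the 5 motifs. It lies inside the ERAP1 gene model. The stretch counted for ERAP1, at the outermost of the starts listed for it, lies inside that gene's own model, which extends further upstream, and overlaps the model of LOC124901033. Those of HLA-C and HLA-F were alike, with 78.7% identical positions in a global alignment, against 42.7% for HLA-C and B2M and 44.7% for HLA-C and TAPBP. A match describes the letters and says nothing about binding in these cells.

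Values are log2 levels per probe set as deposited, whose zero point and possible stretch are unknown, so folds hold only if the scale is not stretched. Array medians lay between 7.06 and 7.10, and background was set for each array at the 95th percentile of its 612 negative control probe sets, which lay between 7.32 and 7.56. MAPK6 itself fell 8.18-fold, from 13.54 ± 0.09 to 10.51 ± 0.18 (SD, n = 3 each; limma adjusted p = 0.000133). On the second principal component of all genes, siCon 2 (-26.5) and siERK3 3 (-15.2) lay below 0 and the remaining 4 arrays above it. Among these, siCon 1 (21.7) lay further from 0 than siERK3 3. Results are also given without both siCon 2 and siERK3 3, and without each array in turn. SOX10, MITF and S100B, markers of the melanocyte lineage, lay above background on all 6 arrays, while MLANA, PMEL, TYR and TYRP1 lay below it on all 6. Markers of T and NK cells (9), endothelium (5) and keratinocytes (5) lay below background throughout. Of 8 measured markers of other leukocytes, which carry much MHC class I themselves, 6 lay below it, including PTPRC, which encodes CD45, at 3.71 to 4.37. The other 2 were LYZ (lysozyme) and CD68, with log2 changes of -0.85 (SE 0.20) and -0.47 (SE 0.13). Their unadjusted limma p was 0.00205 and 0.00578, and neither passed after adjustment. For both, every siERK3 array lay below every siCon array. The mean log2 level of all 8 markers, 6 of them below background, was 6.17 to 6.45 in siCon and 6.14 to 6.28 in siERK3. The part of these markers in the results was not tested.

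The comparison asks whether MHC class I presentation genes differ after ERK3 knockdown. None of the 10 passed limma's test after adjustment over all genes by Benjamini and Hochberg (smallest adjusted p 0.156, for ERAP2), where 0.956% of all genes passed. At an unadjusted p under 0.05, 5 of the 10 were lower in siERK3 (B2M, HLA-C, HLA-F, ERAP1 and ERAP2), against 6.5% of all genes, and 0 were higher, against 6.98%. For the same 5 genes every siERK3 array lay below every siCon array, as for 9.7% of all genes, and 0 were split the other way, as 10.1% of all genes were (19.8% in either direction). ERAP2, included in both counts, lay below background on all 6 arrays. The median log2 change of the 10 was -0.28, beside -0.0014 for all genes, with a range from -0.59 for ERAP2 to 0.36 for TAP2. Of all 17687 genes, 8838 lay below background on all arrays, as did 2 of the 10. The shares over all genes may therefore differ from those over genes at like levels, which were not counted. The 10 genes were chosen with earlier results of the same arrays known, so the counts describe them and are no test of the group. In RNA of whole cultures, fewer cells that express a gene and less RNA per cell cannot be told apart.

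**Figure D1:**
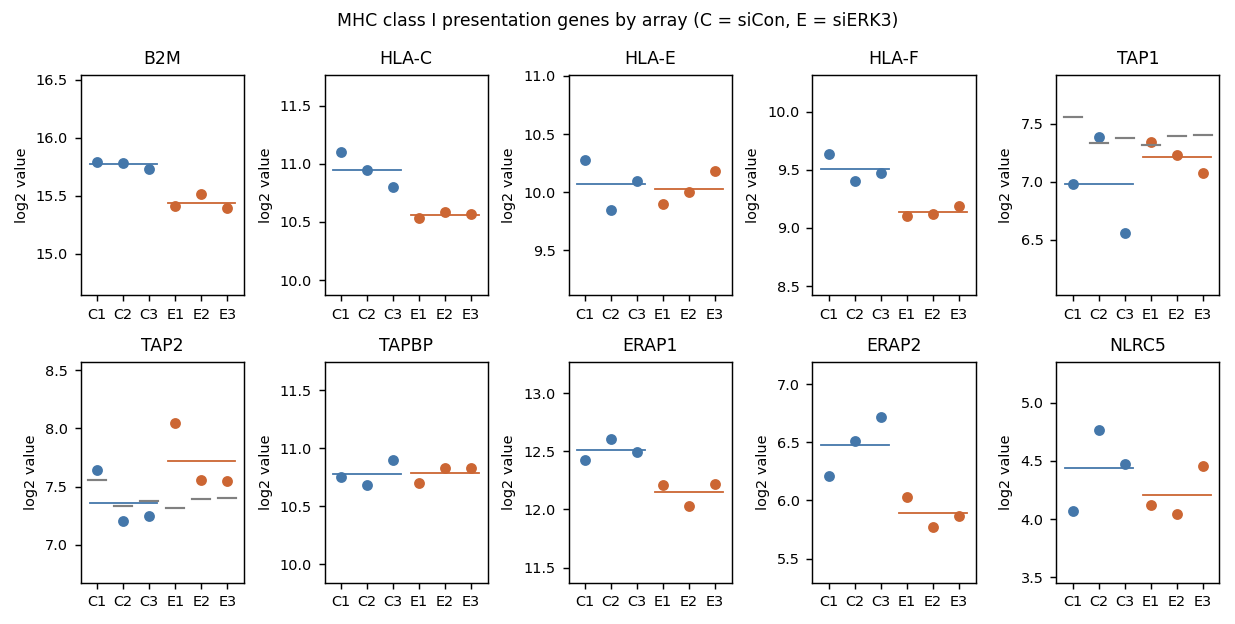
Log2 value of each gene (vertical axis, same span in every panel) on the 3 siCon (C1 to C3, blue) and 3 siERK3 arrays (E1 to E3, orange); coloured lines are group means and grey ticks, where in range, the background of that array. B2M, HLA-C, HLA-F, ERAP1 and ERAP2 show no overlap between groups, and the ERAP2 and NLRC5 points all lie under background, which is out of range in their panels.

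B2M, the light chain that every classical heavy chain needs to reach the cell surface (probe set TC1500007097.hg.1), stood at 15.79, 15.79 and 15.73 on siCon 1, 2 and 3 and at 15.41, 15.52 and 15.39 on siERK3 1, 2 and 3. The groups did not overlap, and the SD was 0.03 in siCon and 0.07 in siERK3 (n = 3 each). Its log2 change was -0.33 (SE 0.12; unadjusted p = 0.0264, limma adjusted p = 0.291), a level 1.26-fold lower with a 95% interval of the siERK3 to siCon ratio from 0.655 to 0.967. Of all genes, 9.42% had a change at or below it. With limma's mean-variance trend and robust variances, where its SE was 0.066, B2M passed (adjusted p = 0.00684), in a fit that called 4.08% of all genes. Over all the alternatives its adjusted p ranged from 0.00684 to 0.514.

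HLA-C, a classical heavy chain and a ligand of killer cell receptors (TC0600014257.hg.1), measured 11.10, 10.95 and 10.80 on the siCon arrays and 10.54, 10.58 and 10.57 on the siERK3 arrays. The siERK3 arrays were close together and all lower, while the siCon arrays were spread more widely, siCon 1 highest. The log2 change was -0.39 (SE 0.13; unadjusted p = 0.0184, limma adjusted p = 0.258), or 1.31-fold lower (ratio 0.620 to 0.944).

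HLA-F, a non-classical heavy chain seen by receptors of natural killer cells (TC0600007480.hg.1), measured 9.64, 9.40 and 9.47 in siCon and 9.10, 9.12 and 9.19 in siERK3. It repeated the order of HLA-C in that siCon 1 was highest and the groups did not overlap. Its log2 change was -0.36 (SE 0.13; unadjusted p = 0.0216, limma adjusted p = 0.274), or 1.29-fold lower (ratio 0.633 to 0.954).

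HLA-E, the heavy chain that presents leader peptides of other class I chains to the inhibitory receptor NKG2A (TC0600007530.hg.1), measured 10.28, 9.85 and 10.10 in siCon and 9.90, 10.00 and 10.18 in siERK3. Its groups overlapped fully. The log2 change of -0.05 (SE 0.16; limma adjusted p = 0.933) had an interval of the ratio from 0.755 to 1.24, which also holds the ratios of HLA-C and HLA-F.

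Class I heavy chains are close relatives, and the probe sequences were not used here, so signal shared between their probe sets cannot be told apart. HLA-G, the non-classical chain of trophoblast outside the 10 genes, measured 9.56, 9.11 and 9.15 in siCon and 9.01, 9.09 and 8.99 in siERK3. It too was lower on every siERK3 array, narrowly so for siERK3 2 against siCon 2, with a log2 change of -0.24 (SE 0.16; limma adjusted p = 0.574).

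TAP1, 1 of the 2 subunits of the peptide transporter (TC0600011508.hg.1), measured 6.99, 7.38 and 6.56 in siCon and 7.34, 7.23 and 7.07 in siERK3. Only siCon 2 and siERK3 1 lay above their background, and the groups overlapped. The log2 change was 0.24 (SE 0.21; limma adjusted p = 0.690). TAP2, its partner subunit (TC0600014275.hg.1), measured 7.64, 7.20 and 7.24 in siCon and 8.05, 7.55 and 7.55 in siERK3, with 1 siCon array and all 3 siERK3 arrays above background. The log2 change was 0.36 (SE 0.19; unadjusted p = 0.0926, limma adjusted p = 0.473), with siCon 1 inside the range of siERK3. No fold is given for either subunit, since part of the arrays lay at or below background.

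TAPBP, tapasin, which bridges TAP and the empty heavy chain (TC0600011536.hg.1), measured 10.75, 10.68 and 10.90 in siCon and 10.70, 10.83 and 10.83 in siERK3. The groups overlapped and the log2 change was 0.01 (SE 0.13; limma adjusted p = 0.985), with a ratio between 0.820 and 1.24. The B2M ratio of 0.796 lies just outside this interval, but the intervals of both genes overlap, and the difference between their changes was not tested.

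ERAP1, the aminopeptidase that trims peptides to the length class I binds (TC0500013342.hg.1), measured 12.43, 12.61 and 12.49 in siCon and 12.21, 12.03 and 12.22 in siERK3. All siERK3 arrays lay lower, siERK3 2 lowest. The log2 change of -0.36 (SE 0.13; unadjusted p = 0.0246, limma adjusted p = 0.287) corresponds to a level 1.28-fold lower (ratio 0.635 to 0.961). ERAP2, its relative with another preference for the peptide's end (TC0500008156.hg.1), measured 6.21, 6.51 and 6.71 in siCon and 6.03, 5.77 and 5.87 in siERK3. The groups did not overlap, and the log2 change of -0.59 (SE 0.16; unadjusted p = 0.00607, limma adjusted p = 0.156) had the smallest p of the 10. All 6 ERAP2 values lay below background, so the change has no fold.

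NLRC5, the coactivator of the family (TC1600007986.hg.1), measured 4.07, 4.76 and 4.47 in siCon and 4.12, 4.04 and 4.46 in siERK3. Every value lay far below background and the groups overlapped (log2 change -0.23, SE 0.20; limma adjusted p = 0.689), so a difference in NLRC5 was not detectable on these arrays.

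**Figure D2:**
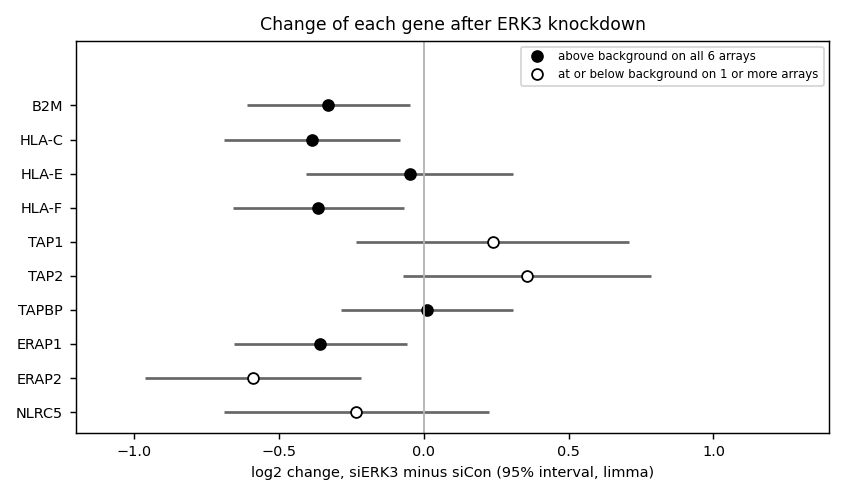
Log2 change of each gene, siERK3 minus siCon (horizontal axis), with the 95% interval of limma's fit; filled points lay above background on all 6 arrays and open points did not. The unadjusted intervals of B2M, HLA-C, HLA-F, ERAP1 and ERAP2 lie below 0, while those of HLA-E, TAP1, TAP2, TAPBP and NLRC5 include it.

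Changes were set against each other within arrays for 6 pairs of related genes, chosen after their values were seen. Levels of different probe sets are not comparable, so only the difference of a ratio between groups is of use. The log2 ratio of HLA-E to HLA-C was -0.82, -1.10 and -0.71 in siCon and -0.64, -0.58 and -0.39 in siERK3, higher by 0.34 in siERK3 with no overlap. The ratio of HLA-E to HLA-F was higher by 0.32, again with no overlap. Both had an exact two-sided permutation p of 0.1 (adjusted p = 0.3 over 6 pairs), the smallest that 3 against 3 arrays allow. The log2 ratio of HLA-C to B2M was -4.82 ± 0.12 in siCon and -4.88 ± 0.06 in siERK3 (SD, n = 3 each; exact permutation p = 0.6). The ratios of HLA-F to HLA-C and of TAP2 to TAP1 differed by 0.02 and 0.12 (exact permutation p = 0.8 for each). That of ERAP2 to ERAP1 differed by -0.23 (exact permutation p = 0.2, adjusted p = 0.4), with ERAP2 below background on all 6 arrays, so it does not say which of the pair differed more. TAP1 and TAP2 also lay at or below background on part of the arrays. No pair could have reached 0.05 with 3 against 3 arrays. Each of the 5 genes lower in siERK3 had an exact permutation p of 0.1 on its own.

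The arrays were not alike within a group. Of the 10 genes, 4 had their highest value on siCon 1, 3 on siCon 2, 2 on siCon 3 and 1, TAP2, on siERK3 1. Over the 6 genes above background on all arrays (B2M, HLA-C, HLA-E, HLA-F, TAPBP and ERAP1), the mean deviation from each gene's own mean was 0.19, 0.07 and 0.11 in siCon and -0.16, -0.13 and -0.08 in siERK3. Among 17677 other genes, ANKRD28, HPS4 and TMEM245 followed this mean profile most closely over the 6 arrays (Pearson's r of 0.993, 0.992 and 0.992). Of these 17677 genes, 375 had an r above 0.9. The profile lay above 0 on all siCon and below 0 on all siERK3 arrays, so a high r partly restates the difference between groups. ANKRD28, HPS4 and TMEM245 were themselves lower in siERK3 without overlap (log2 changes of -0.64, -0.68 and -0.55). None of these 3 genes passed limma's test after adjustment.

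With 1 array left out, 0 of the 10 passed over all genes. The 5 lower genes stayed lower in all 6 fits, which was fixed in advance, since their groups did not overlap. The number lower at an unadjusted p under 0.05 dropped from 5 to 2 without siCon 1, to 3 without siCon 2, siERK3 1 or siERK3 2, and to 4 without siCon 3 or siERK3 3. ERAP2 stayed under that level in 6 of these fits, HLA-C in 5, HLA-F and ERAP1 in 3 each and B2M in 2. TAP1 and TAP2 reached it as higher in 1 fit each, without siCon 2 (log2 change 0.44) and without siCon 1 (0.50). The log2 change of TAP1 was as low as 0.031 without siCon 3, and that of TAP2 was 0.19 without siERK3 1. For NLRC5 it ranged from -0.41 without siCon 1 to -0.069 without siCon 2. Without both siCon 2 and siERK3 3, the log2 changes were -0.30 for B2M, -0.39 for HLA-C, -0.24 for HLA-E, -0.44 for HLA-F, -0.34 for ERAP1 and -0.56 for ERAP2. In that fit TAPBP had -0.06, NLRC5 -0.20, TAP1 0.51 and TAP2 0.36, and 2 of the 10 were lower and 1 higher at an unadjusted p under 0.05. The change of HLA-E thus moved the most among the genes above background when arrays were left out.

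**Figure D3:**
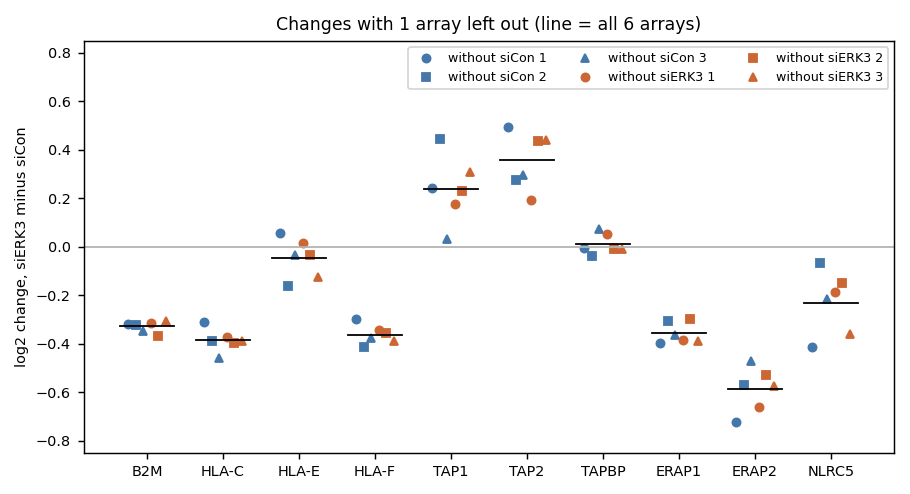
Log2 change of each gene (vertical axis, siERK3 minus siCon) with each array left out in turn (blue, a siCon array; orange, a siERK3 array); black lines are the changes over all 6 arrays. B2M, HLA-C, HLA-F, ERAP1 and ERAP2 stay below 0 in every fit, as genes without overlap between groups must. TAP1 and TAP2 stay above 0, and HLA-E and TAPBP lie on both sides.

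Around these genes, 8 lists of the same pathway with 85 genes were examined, of which 77 were measured. In limma's test over all genes 1 of them rose, MOGS, and 0 fell; at an unadjusted p under 0.05, 8 were higher and 4 lower, together 15.6% against 13.5% of all genes. Their median log2 change was 0.02. The lists were written with earlier results of these arrays known, and each is given as counts without a test.

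MOGS, the glucosidase that takes the first glucose off new N-glycans, heavy chains among their carriers, measured 9.63, 9.33 and 9.57 in siCon and 10.31, 10.28 and 10.42 in siERK3. The groups lay well apart. MOGS rose by 0.82 (SE 0.14; limma adjusted p = 0.0373), but with any 1 of the 6 arrays left out it no longer passed (limma adjusted p 0.0871 to 0.149). Without both siCon 2 and siERK3 3 its log2 change was 0.69 (limma adjusted p = 0.227). The other 7 genes of peptide loading and folding in the endoplasmic reticulum did not pass, and the list's median was 0.0079. Its chaperones had log2 changes of 0.02 for CALR (calreticulin), -0.05 for CANX (calnexin) and 0.02 for PDIA3 (ERp57), each with an SE of 0.13. TAPBPL, a tapasin relative that edits peptides, had -0.35 (SE 0.20).

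Genes of class I export and turnover had 0 of 10 past the test and a median of 0.11. SUSD6, reported to steer class I molecules to lysosomal breakdown together with TMEM127 and the ubiquitin ligase WWP2, measured 6.78, 6.61 and 6.54 in siCon and 7.37, 7.43 and 7.20 in siERK3. It lay above background on 0 siCon and 2 siERK3 arrays, with a log2 change of 0.69 (SE 0.14; limma adjusted p = 0.0644). SUSD6 passed in 3 of 15 alternative fits, with adjusted p from 0.0320 to 0.227. TMEM127 measured 10.42, 10.54 and 10.16 in siCon and 10.98, 10.74 and 10.76 in siERK3, also without overlap (log2 change 0.45, SE 0.15; limma adjusted p = 0.241). WWP2 had a log2 change of 0.11 (SE 0.13) and MARCHF8, a ligase that removes surface proteins, of -0.24 (SE 0.13).

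Among 10 catalytic subunits and activators of the proteasome, 0 passed, with a median of -0.05. PSME4, an activator, had a log2 change of -0.36 (SE 0.13; limma adjusted p = 0.258), PSME3, another activator, of 0.44 (SE 0.17; 0.297) and PSMB5, a catalytic subunit of the standard proteasome, of 0.33 (SE 0.14; 0.354). The groups of each of these 3 did not overlap. The interferon-inducible subunits PSMB8 and PSMB9, whose genes lie beside TAP1 and TAP2 on chromosome 6 in RefSeq's GRCh38.p14 table, had 0.02 (SE 0.15) and -0.14 (SE 0.14), with overlapping groups. Of 6 peptidases of the cytosol and endosomes 0 passed, with a median of -0.06. TPP2, which cuts long peptides, had -0.40 (SE 0.22) over siERK3 values of 10.25, 10.60 and 11.15, and NPEPPS and BLMH had -0.18 and 0.11.

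Factors that act on class I promoters had 0 of 12 past the test and a median of 0.02. IRF1, an interferon-induced activator, was below background on all 6 arrays, at 6.79, 7.03 and 6.77 in siCon and 6.44, 6.48 and 6.28 in siERK3 (log2 change -0.47, SE 0.14; limma adjusted p = 0.189). RFXANK and RFX5, subunits of the X box complex, had log2 changes of 0.22 (SE 0.13) and 0.01 (SE 0.12), and EZH2, a histone methyltransferase known to silence class I genes, of -0.31 (SE 0.16).

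Interferon receptors and their JAK-STAT relay had 0 of 13 past the test and a median of -0.05. IFNGR2, a chain of the interferon gamma receptor, measured 14.26, 14.27 and 14.29 in siCon and 13.78, 13.75 and 13.93 in siERK3 (log2 change -0.45, SE 0.13; limma adjusted p = 0.154). TYK2, a kinase of the interferon alpha receptor, lay higher, at 9.67, 9.59 and 9.70 in siCon and 10.09, 10.10 and 10.23 in siERK3 (log2 change 0.49, SE 0.13; limma adjusted p = 0.129). Neither overlapped between groups. SOCS1, a feedback inhibitor of the JAKs, lay below background on all arrays (-0.30, SE 0.19).

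Among 10 measured class I-like molecules and other heavy chains, 0 passed and the median was 0.20, though 6 of the 10 lay below background on all arrays. MR1, which shows vitamin metabolites to MAIT cells, measured 8.29, 8.62 and 8.35 in siCon and 8.09, 7.97 and 8.01 in siERK3 (log2 change -0.40, SE 0.14; limma adjusted p = 0.268). PROCR, the protein C receptor with a class I-like fold, had 0.34 (SE 0.14) without overlap, and CD1D, the lipid-presenting molecule, 0.56 (SE 0.22) with 0 siCon and 2 siERK3 arrays above background. Stress ligands of the activating receptor NKG2D had 0 of 8 past the test and 0 at an unadjusted p under 0.05, with a median of 0.14. MICA, MICB and ULBP2 had log2 changes of 0.25 (SE 0.15), 0.20 (SE 0.17) and 0.17 (SE 0.19), with overlap between groups for each.

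**Figure D4:**
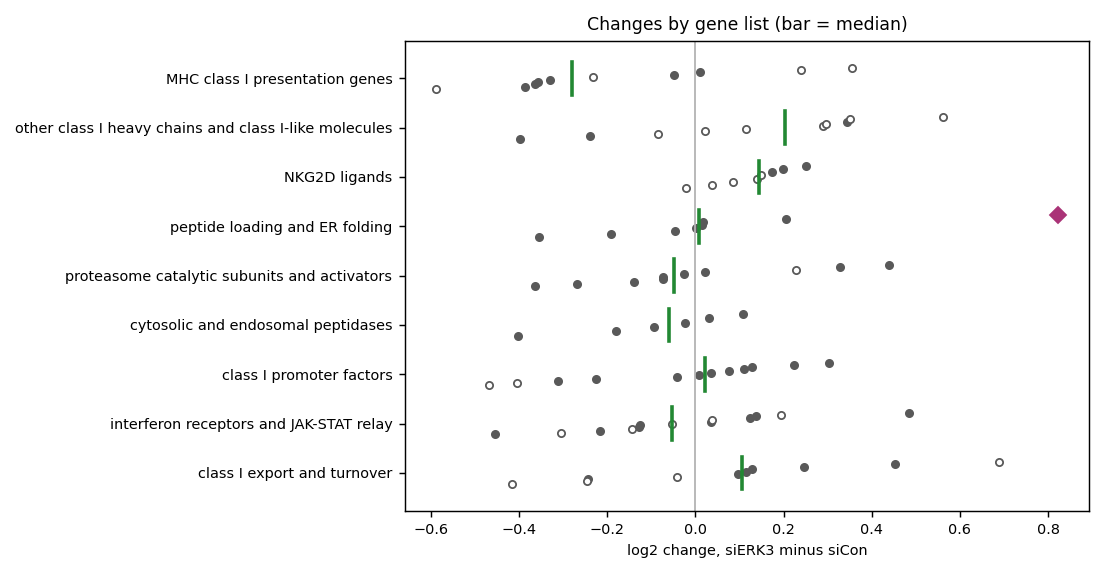
Log2 change of each measured gene (horizontal axis, siERK3 minus siCon) by gene list; green bars are medians, filled points lay above background on all 6 arrays, open points did not, and the diamond is the gene that passed limma's test over all genes, MOGS. The MHC class I presentation genes have a median of -0.28, and those of the other 8 lists lie between -0.06 and 0.20.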

How the data were processed

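Gene expression was measured in 6 A375 RNA samples, 3 per group, on Clariom S Pico human arrays. The authors deposited log2 values per probe set. That they are log2 follows from their range, and how they were background-corrected, summarised and normalized is not given in the labels or the table. Symbols came from the platform annotation (1 symbol for 17709 of 24351 probe sets, several for 0), and 0 needed an update through RefSeq. Control and unnamed probe sets (6642) were left out, and the brightest probe set was kept where a gene had several (20 genes), giving 17687 genes. No filter or pseudocount was applied. siERK3 was tested against siCon without covariates by lmFit and eBayes of limma 3.58.1 (R 4.3.3; prior of 4.77 degrees of freedom). P-values were adjusted over all genes by Benjamini and Hochberg's method, and calls were made at 0.05. The method was tested on simulated data. The number of arrays limits the precision. The table used holds no detection calls, hence the negative controls as background.

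The 10 genes and all lists were chosen with earlier results of these data known. Named were the 10 genes, MAPK6, the genes of each pathway list past the threshold or otherwise the 3 with the smallest p, and the 3 genes most like the mean profile; HLA-G, PSMB8, PSMB9, CALR, CANX, PDIA3, TAPBPL, WWP2, RFX5 and the markers PTPRC, LYZ and CD68 were named after their values were seen. Promoter sequences are RefSeq's, 1 per gene at the outermost start. Alternatives were quantile, median and cyclic loess scaling, filters at the 30th percentile and the median, averaged probe sets, array weights, eBayes with a mean-variance trend and robust variances, the replicate number as a block and each array left out. Leaving out siCon 2 and siERK3 3 together was added after seeing the data.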

Additional observations from a re-analysis of the deposited data

How the results depend on the processing

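Every alternative kept the direction of B2M, HLA-C, HLA-F, ERAP1, ERAP2, NLRC5, TAP1 and TAP2 where it tested the gene. The filters, averaged probe sets, mean-variance trend and replicate block left each log2 change as it was and could not alter a direction. Array weights and left-out arrays could not do so for B2M, HLA-C, HLA-F, ERAP1 and ERAP2, whose groups did not overlap. HLA-E had a log2 change of -0.16 to 0.055 with 1 array left out, above 0 without siCon 1 (0.055) and without siERK3 1 (0.017), and TAPBP of -0.0032 after subtraction of array medians, -0.021 with array weights, -0.058 without both siCon 2 and siERK3 3, and -0.037 to 0.073 with 1 array left out. Of the 10 genes, 1 (B2M) passed with the mean-variance trend and 0 in the other fits. With 1 array left out, 2 to 4 of them were lower and 0 to 1 higher at an unadjusted p under 0.05; without both siCon 2 and siERK3 3 these were 2 and 1. All genes passing numbered 169 in the default fit, 365 above the 30th percentile, 581 above the median, 722 with the trend, 7 without both arrays and 23 to 60 with 1 array left out. Of the 77 pathway genes, 2 passed with array weights or above the 30th percentile, 3 above the median, 6 with the trend, 0 without both arrays and 0 with 1 left out. Deviations of same-numbered arrays of the groups had correlations of 0.05, -0.12 and -0.04, and those of other pairs lay between -0.15 and 0.17. With 3 arrays per group this cannot show whether the numbers pair cultures or batches, which the labels do not state. With the replicate block 33 genes passed, 0 of the 10 and 0 of the pathway genes. In that fit 3 of the 10 were lower and 1 higher at an unadjusted p under 0.05. The filters left out NLRC5, and that at the median also ERAP2 and SUSD6. Scaling moved the median change of all genes by at most 0.02. Levels near or below background limit TAP1, TAP2, ERAP2 and NLRC5.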
